A study of Mus musculus with 12 samples.

Results

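The 47 genes described here are the type I interferon-stimulated antiviral genes and the interferon beta gene Ifnb1, taken by symbol from a deposited table of 54532 genes in mouse bone marrow-derived macrophages. These macrophages were grown from bone marrow of 8-week-old donors with 10 ng/ml M-CSF, the growth factor that turns marrow precursors into macrophages and kept in a standard serum medium. Each of 4 groups had 3 RNA sequencing libraries of total RNA: Lyz2-Cre-Hdac3f/f cells given 500 ng/ml lipopolysaccharide (LPS, a bacterial cell wall component) for 4 h, Hdac3f/f cells given the same LPS, untreated Lyz2-Cre-Hdac3f/f cells and untreated Hdac3f/f cells. In both genotypes Hdac3, the catalytic subunit gene of the NCoR and SMRT corepressor complexes, carries loxP sites (f/f). In the Lyz2-Cre genotype, called Lyz2-Cre here, Cre recombinase is made from the myeloid Lyz2 locus, so that recombination depends on how far that locus is active in the cultured cells. Nothing in the labels says whether the 3 libraries of a group come from separate animals, so each p-value measures the spread between these libraries only.

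LPS binds Toll-like receptor 4, and through the adaptor TRIF (Ticam1), the kinase TBK1 and the transcription factor IRF3 it switches on Ifnb1. Secreted interferon beta binds the receptor IFNAR1/IFNAR2, whose kinases JAK1 and TYK2 activate the transcription factor complex ISGF3, of which STAT2 and IRF9 are parts. ISGF3 binds the interferon-stimulated response element and turns on antiviral genes. The 47 genes were ordered by role: the ligand, the IFIT and OAS families, the ISG15 conjugation system, sensors of RNA and DNA, the IFI200 family, direct antiviral effectors, PARP and DTX3L genes, and other interferon-stimulated genes.

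Promoters were available for 35 of the 47 genes in the RefSeq table of GRCm38.p6, each read here over 250 bases before the RefSeq start. The 4 printed are those with the largest LPS response, averaged over both genotypes, among genes that hold the core of the interferon-stimulated response element. They show where that core lies in the genes whose response is described further on. Each runs 5′ to 3′ on the strand of its gene, and capitals mark this core, read as GAAA, any 2 bases and GAAA again, on either strand, where overlapping matches form a longer run.
Ifi205 (GRCm38.p6, chr1:174031756-174032005, minus strand): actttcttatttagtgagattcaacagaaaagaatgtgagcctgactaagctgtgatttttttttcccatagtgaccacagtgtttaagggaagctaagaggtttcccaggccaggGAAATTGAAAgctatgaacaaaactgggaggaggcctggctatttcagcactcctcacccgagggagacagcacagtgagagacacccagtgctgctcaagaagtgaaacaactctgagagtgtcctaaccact
Isg15 (GRCm38.p6, chr4:156200819-156201068, minus strand): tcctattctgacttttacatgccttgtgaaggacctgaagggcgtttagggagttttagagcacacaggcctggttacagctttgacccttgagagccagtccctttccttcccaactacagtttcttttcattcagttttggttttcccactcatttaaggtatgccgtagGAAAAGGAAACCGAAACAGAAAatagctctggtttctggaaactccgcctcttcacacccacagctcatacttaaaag
Rsad2 (GRCm38.p6, chr12:26456453-26456702, minus strand): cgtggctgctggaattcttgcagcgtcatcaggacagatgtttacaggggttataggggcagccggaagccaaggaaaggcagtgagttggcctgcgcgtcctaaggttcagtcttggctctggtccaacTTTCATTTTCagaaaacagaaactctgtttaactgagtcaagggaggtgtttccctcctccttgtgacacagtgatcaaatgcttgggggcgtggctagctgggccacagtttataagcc
Ifit1 (GRCm38.p6, chr19:34640639-34640888, plus strand): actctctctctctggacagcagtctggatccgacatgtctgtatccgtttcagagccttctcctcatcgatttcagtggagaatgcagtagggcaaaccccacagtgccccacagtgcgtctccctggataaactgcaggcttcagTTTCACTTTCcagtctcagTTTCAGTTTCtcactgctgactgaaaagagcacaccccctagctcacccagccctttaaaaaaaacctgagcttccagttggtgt

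The core was found in 14 of the 35 promoters (40.0%), against 936 of the 27025 promoters of all genes in the table (3.46%). The 14 were Bst2, Ifi203, Ifi205, Ifit1, Ifit3, Ifit3b, Isg15, Oas1a, Oas1g, Oas3, Rsad2, Slfn5, Slfn8 and Trim30a. TTCNNNGAA, the core bound by STAT dimers, reads the same on both strands and was found in 5 of 35 (14.3%), against 8.13% of all promoters. Bst2 and Oas1a held both. Of 12 genes the table has no entry: Oas2, Usp18, Dhx58, Zbp1, Ifi204, Mx1, Mx2, Parp9, Parp14, Rtp4, Ifi27l2a and Tor3a. The median interaction, defined further on, was -0.98 over the 14 genes with the core and -0.87 over the 21 promoters without it, with ranges that overlapped over most of their length (-2.40 to -0.33 and -2.98 to -0.01).

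Libraries held 16553432 to 18706990 counts and 18159 to 21296 genes with a count. Hdac3 itself was at 37.1 ± 2.37 CPM (read counts scaled to the same library size, by TMM, and given per 1000000) in LPS-treated Lyz2-Cre cells and 39.5 ± 1.08 CPM in Hdac3f/f cells with LPS, and at 34.9 ± 1.75 CPM in untreated Lyz2-Cre cells and 38.4 ± 1.86 CPM in untreated Hdac3f/f cells (SD, n = 3). It was called in neither comparison of genotypes (adjusted p = 0.473 with and 0.352 without LPS, edgeR), and the floxed exons cannot be told apart from the rest of the gene in these counts. Untreated Lyz2-Cre replicate 1 stood apart in Lyz2, with 31.0 CPM, where the other Lyz2-Cre libraries had 5181 to 7728 CPM and the Hdac3f/f libraries 9318 to 12350 CPM. Without that library 41 of the 47 genes rose with LPS in Lyz2-Cre cells (42 with it), 24 were lower with LPS in Lyz2-Cre cells (24), 16 were higher without LPS (25) and 26 had an interaction called below 0 (26). All 8 macrophage markers were detected in each group, and their sum, to which Lyz2 belongs, was lower in Lyz2-Cre cells: 13200 to 14400 CPM in LPS-treated Lyz2-Cre libraries, against 17400 to 18700 CPM in LPS-treated Hdac3f/f libraries, and 5890 to 11300 CPM in untreated Lyz2-Cre libraries, against 14300 to 17500 CPM in untreated Hdac3f/f libraries. Lyz2 alone was at 6689 ± 903 CPM in LPS-treated Lyz2-Cre cells, against 11370 ± 926 CPM in LPS-treated Hdac3f/f cells. Without LPS it was at 3616 ± 3110 CPM in Lyz2-Cre cells, against 10490 ± 1360 CPM in Hdac3f/f cells. The sums thus largely follow Lyz2, the locus that carries Cre, and do not describe the other markers. By gene, 3 of the 8 were higher and 3 lower in Lyz2-Cre cells with LPS, and 1 was higher and 1 lower without.

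Markers of several other cell types moved with the genotype. Among all tested genes 15.7% were higher and 16.9% lower in Lyz2-Cre cells with LPS, and 5.12% higher and 6.66% lower without. Stromal markers, of which all 8 tested were lower with LPS and 6 of 8 without, summed to 47.3 to 62.2 CPM in LPS-treated Lyz2-Cre libraries, against 951 to 1930 CPM in LPS-treated Hdac3f/f libraries, and to 24.0 to 205 CPM in untreated Lyz2-Cre libraries, against 332 to 1610 CPM in untreated Hdac3f/f libraries. Of 10 T and NK cell markers 5 were higher at each treatment, and they summed to 61.3 to 103 CPM in LPS-treated Lyz2-Cre libraries, against 30.4 to 69.2 CPM in LPS-treated Hdac3f/f libraries, and to 25.9 to 35.2 CPM in untreated Lyz2-Cre libraries, against 13.7 to 17.6 CPM in untreated Hdac3f/f libraries. Mast cell and basophil markers, 8 in all (with LPS 5 higher and 1 lower, without LPS 6 higher), summed to 208 to 366 CPM in LPS-treated Lyz2-Cre libraries, against 204 to 288 CPM in LPS-treated Hdac3f/f libraries, and to 162 to 237 CPM in untreated Lyz2-Cre libraries, against 103 to 127 CPM in untreated Hdac3f/f libraries. Conventional dendritic cell markers, of which 2 of 6 tested were higher with LPS and 1 without, summed to 43.6 to 54.1 CPM in LPS-treated Lyz2-Cre libraries, against 34.3 to 40.7 CPM in LPS-treated Hdac3f/f libraries, and to 11.4 to 21.5 CPM in untreated Lyz2-Cre libraries, against 5.55 to 7.33 CPM in untreated Hdac3f/f libraries, with Cd209a at 0 in all groups. Neutrophil markers, of which none of 7 tested was called with LPS and 2 were lower without, summed to 102 to 370 CPM in LPS-treated Lyz2-Cre libraries, against 131 to 300 CPM in LPS-treated Hdac3f/f libraries, and to 56.1 to 160 CPM in untreated Lyz2-Cre libraries, against 219 to 382 CPM in untreated Hdac3f/f libraries. The 5 B cell markers summed to at most 5.37 CPM in any library. Of 7 plasmacytoid dendritic cell markers, of cells known for making type I interferon, 4 were tested. Of these 4, 1 was higher with LPS and none was called without. The 7 summed to 63.7 to 72.7 CPM in LPS-treated Lyz2-Cre libraries and 65.4 to 87.5 CPM in LPS-treated Hdac3f/f libraries. Klk1 was at 0 in both of these groups. They summed to 41.1 to 52.1 CPM in untreated Lyz2-Cre libraries, against 39.9 to 55.7 CPM in untreated Hdac3f/f libraries. The part of these other cells in the differences below was not tested, and in such bulk samples fewer cells of a type cannot be told apart from less RNA per cell.

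Over all 47 genes together, LPS-treated Lyz2-Cre macrophages held less interferon-stimulated transcript than LPS-treated Hdac3f/f macrophages, and untreated Lyz2-Cre macrophages held more than untreated Hdac3f/f macrophages. The 47 genes summed to 17555, 19044 and 21804 CPM in LPS-treated Lyz2-Cre libraries, against 30289, 30604 and 33664 CPM in Hdac3f/f libraries with LPS. Without LPS they summed to 6677, 7165 and 7692 CPM in Lyz2-Cre libraries, against 5967, 5165 and 4845 CPM in Hdac3f/f libraries. No library of one genotype overlapped with the other at either treatment. The Lyz2-Cre mean was thus 61.8% of the Hdac3f/f mean with LPS and 135% without, and the ratio of LPS-treated to untreated means was 2.71 in Lyz2-Cre cells and 5.92 in Hdac3f/f cells. The 47 genes took 1.64% to 1.95% of all counts in LPS-treated Lyz2-Cre libraries, 2.19% to 2.53% in LPS-treated Hdac3f/f libraries, 0.774% to 0.934% in untreated Lyz2-Cre libraries and 0.541% to 0.753% in untreated Hdac3f/f libraries.

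**Figure D1:**
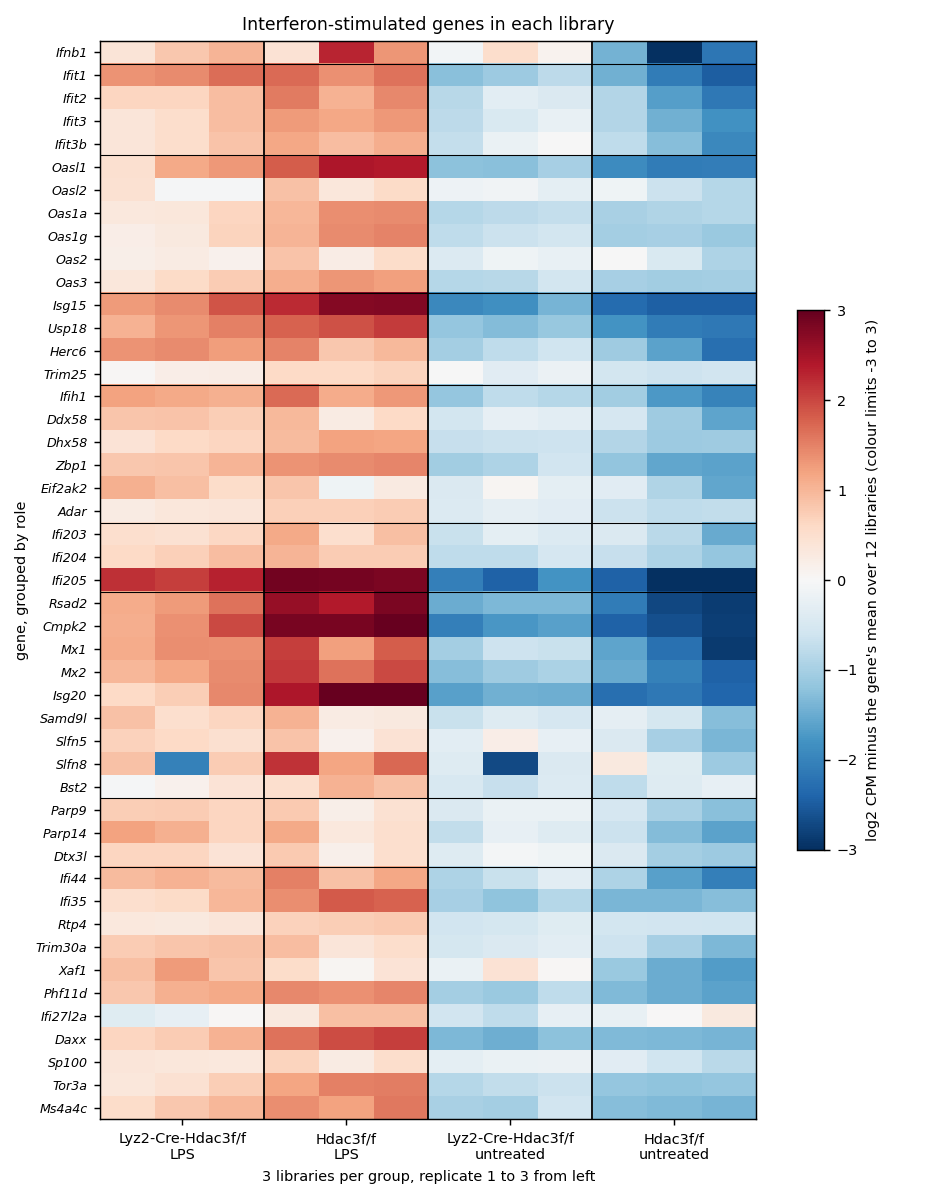
Level of each of the 47 genes (rows, grouped by role) in each of the 12 libraries (columns), as log2 CPM minus the gene's mean over all libraries, with colours limited to -3 to 3. Red fills the 6 LPS-treated libraries for nearly every gene and blue the 6 untreated ones. For Isg15, Rsad2, Cmpk2 and Isg20 the LPS-treated Hdac3f/f libraries are the highest and the untreated Hdac3f/f libraries the lowest.

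LPS raised nearly the whole set in both genotypes. In Lyz2-Cre cells 42 of 47 genes rose, none fell and 5 were not called (edgeR's quasi-likelihood test, Benjamini-Hochberg adjusted p under 0.05 over 14286 tested genes), where 25.2% of all tested genes rose and 52.9% were called in either direction. In Hdac3f/f cells all 47 rose, where 28.0% of all tested genes rose and 60.1% were called in either direction. The median log2 fold change of the 47 was 1.25 in Lyz2-Cre cells and 2.31 in Hdac3f/f cells, against -0.08 over all tested genes in both. All 3 LPS-treated libraries lay above all 3 untreated ones for 44 genes in Lyz2-Cre cells and for all 47 in Hdac3f/f cells, as did 30.9% and 28.3% of all tested genes. The 5 genes not called in Lyz2-Cre cells were Ifnb1 (log2 fold change 0.54 ± 0.48), Oasl2 (0.32 ± 0.19), Oas2 (0.43 ± 0.20), Slfn8 (1.19 ± 0.66) and Ifi27l2a (0.34 ± 0.19). In 33 of the 42 genes that rose in Lyz2-Cre cells and 41 of the 47 in Hdac3f/f cells the call held in each of 21 other settings.

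**Figure D2:**
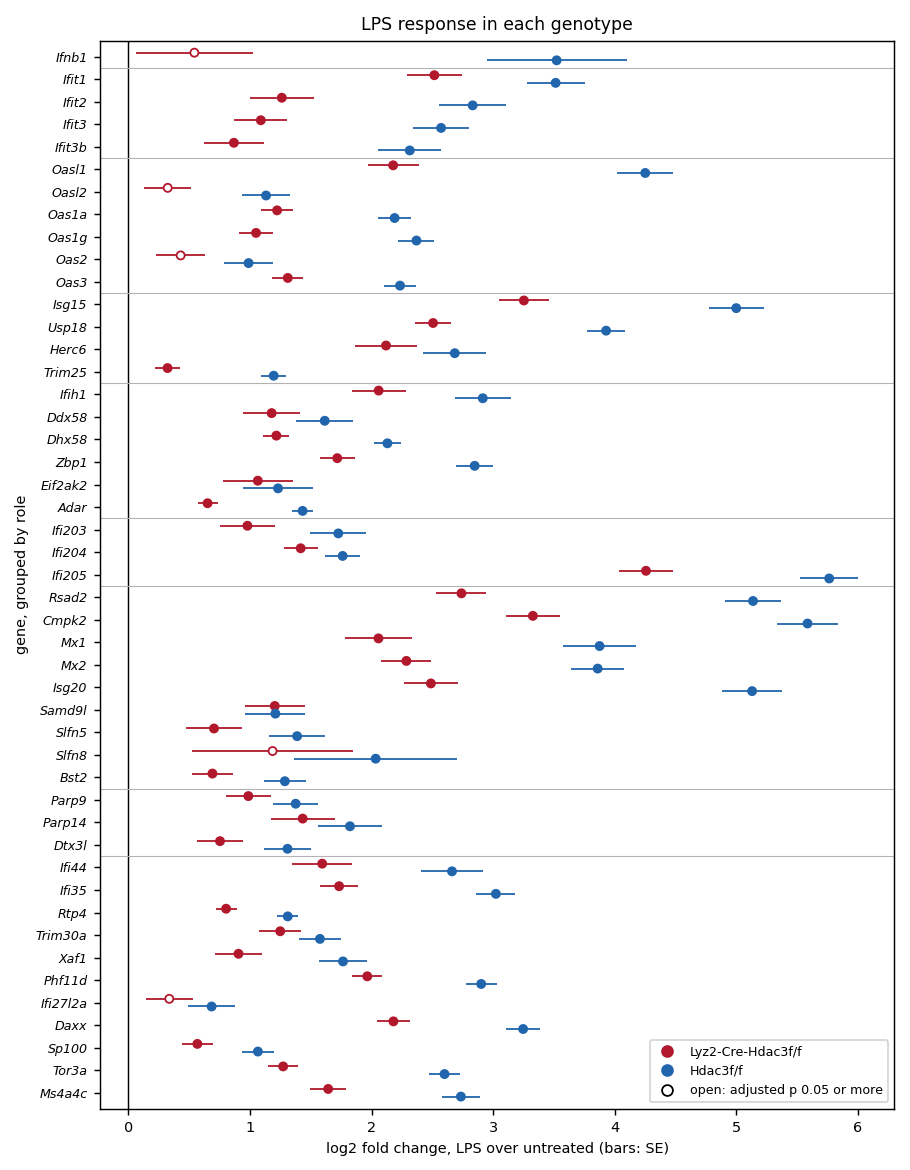
Log2 fold change of each gene with LPS over untreated in Lyz2-Cre-Hdac3f/f cells (red) and Hdac3f/f cells (blue), with SE as bars and open symbols where the adjusted p was 0.05 or more. Points for Lyz2-Cre cells lie left of those for Hdac3f/f cells in all 47 genes, with an interaction of -0.005 for Samd9l and -2.98 for Ifnb1.

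With LPS, 24 of the 47 genes were lower in Lyz2-Cre cells than in Hdac3f/f cells, 1 (Xaf1) was higher and 22 were not called, where 16.9% of all tested genes were lower and 15.7% higher. The median of the 47 was -0.48, against 0.02 over all tested genes. For 27 genes all Lyz2-Cre libraries lay below all Hdac3f/f libraries, as did 22.7% of all tested genes. At an unadjusted p under 0.05 the counts were 26 lower and 1 higher, and the share of all genes at that threshold was not computed. Only 14 genes were lower when libraries were scaled by their totals, where 9.3% of all tested genes were lower. This scaling moved the median of all tested genes to 0.29 and that of the 47 to -0.22. In 13 genes the call held in all 21 other settings: Oasl1, Oas1a, Oas1g, Oas3, Isg15, Dhx58, Rsad2, Cmpk2, Isg20, Ifi35, Ifi27l2a, Daxx and Tor3a.

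Without LPS the genotypes differed the other way: 25 of the 47 genes were higher in Lyz2-Cre cells, none was lower and 22 were not called, where 5.12% of all tested genes were higher and 6.66% lower. The median of the 47 was 0.61, against 0.03 over all tested genes, and in 32 genes all Lyz2-Cre libraries lay above all Hdac3f/f libraries, as did 20% of all tested genes. At an unadjusted p under 0.05 edgeR gave 35 genes higher and 1 lower, and the share of all genes at that threshold was not computed. DESeq2 called 29 higher and 1 lower, where it called 6.78% of all tested genes higher and 9.34% lower. The count of 25 rested on single libraries more than the others did. It was 16 without untreated Lyz2-Cre replicate 1, the library with low Lyz2, 10 without replicate 2 and 5 without replicate 3. It was 4 and 5 without untreated Hdac3f/f replicates 2 and 3, and 16 without LPS-treated Hdac3f/f replicate 3. It was 14 when only the untreated groups were fitted. Usp18, Rsad2, Mx1 and Xaf1 were called higher in all 21 other settings. Each other call was lost in at least 1 of these settings, from 3 for Oasl1 and Adar to 16 for Ms4a4c. The number was 10 for Tor3a, 8 for Ifit2, 5 each for Ifit3, Isg15 and Ifi205, and 4 for Cmpk2.

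**Figure D3:**
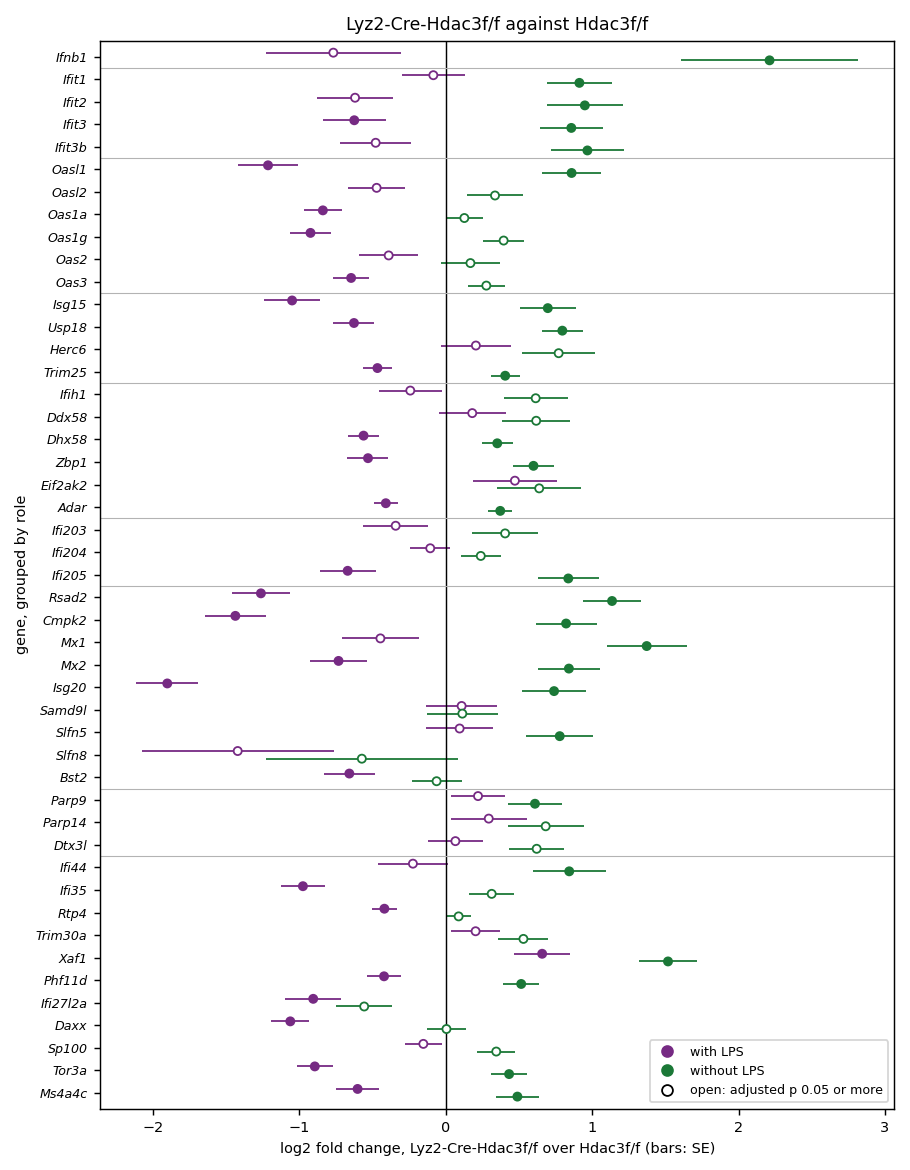
Log2 fold change of each gene in Lyz2-Cre-Hdac3f/f over Hdac3f/f cells with LPS (purple) and without LPS (green), with SE as bars and open symbols where the adjusted p was 0.05 or more. Purple points lie left of green points in every gene, and Xaf1 is the gene with filled points right of 0 at both treatments.

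The difference between the LPS responses of the genotypes (interaction, Lyz2-Cre minus Hdac3f/f) was below 0 for all 47 genes and called in 26, with none called above 0. Of all tested genes 5.54% were called below 0 and 2.58% above, 8.12% in all. The median of the 47 was -0.92, against 0.02 over all tested genes. The genotype comparisons and the LPS responses share libraries, so this is the same difference seen in the counts above and not a separate observation. In 22 of the 26 genes the call held in each of 20 other settings, and Ifit2, Ifit3b, Rtp4 and Ifnb1 lost it in at least 1.

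Ifnb1 (ENSMUSG00000048806, mm10 chromosome 4, 88522025 to 88522774) was read in few counts. LPS-treated Lyz2-Cre libraries had 10, 14 and 15 counts, or 0.604, 0.809 and 0.941 CPM, against 9, 29 and 16 counts in LPS-treated Hdac3f/f libraries, or 0.625, 2.26 and 1.16 CPM. Untreated Lyz2-Cre libraries had 9, 15 and 10 counts, or 0.437, 0.667 and 0.498 CPM, against 4, 1 and 2 counts in untreated Hdac3f/f libraries, or 0.174, 0.0487 and 0.102 CPM. A count of 0 would allow up to 3 counts, and 2 of the 3 untreated Hdac3f/f libraries were under that limit, so the level there is poorly determined. Ifnb1 rose with LPS in Hdac3f/f cells (log2 fold change 3.52 ± 0.58, adjusted p = 0.000152) and had a value of 0.54 ± 0.48 in Lyz2-Cre cells (adjusted p = 0.361). It was higher in Lyz2-Cre cells without LPS (2.21 ± 0.61, adjusted p = 0.034), a call lost when any 1 of the untreated Lyz2-Cre libraries, or untreated Hdac3f/f replicate 2 or 3, was left out (adjusted p from 0.0603 to 0.131). With LPS the groups overlapped (-0.77 ± 0.46, adjusted p = 0.214). The interaction was -2.98 ± 0.76 (adjusted p = 0.0315), and it lost its call in 8 of the 12 fits that left out 1 library (adjusted p from 0.0597 to 0.0925). The 16 other type I interferon genes, such as Ifna4 and Ifnk, passed no filter on low counts and summed to at most 0.130 CPM in a library.

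The 4 IFIT genes encode proteins that bind viral RNA and block its translation, and they lie within 99316 bases of chromosome 19 (34550694 to 34650009). All 4 rose in both genotypes, with a median of 1.18 in Lyz2-Cre cells and 2.70 in Hdac3f/f cells. Ifit3 had 416, 463 and 609.9 CPM in LPS-treated Lyz2-Cre libraries, against 777, 725 and 792 CPM in Hdac3f/f libraries with LPS. It had 187, 235 and 278 CPM in untreated Lyz2-Cre libraries, against 175, 119 and 91.8 CPM in untreated Hdac3f/f libraries. The groups did not overlap at either treatment, and the difference was -0.62 ± 0.21 with LPS (adjusted p = 0.0421, lost in 10 of 21 other settings) and 0.86 ± 0.22 without (adjusted p = 0.0243). All 4 IFIT genes were higher in untreated Lyz2-Cre cells, with log2 fold changes from 0.86 to 0.97. With LPS the value for Ifit1 was -0.08 ± 0.21, with overlapping groups (544, 579 and 688 CPM in Lyz2-Cre cells, against 703, 554 and 662 CPM in Hdac3f/f cells). Ifit3 and Ifit3b share 51.2% and 45.0% of their 50-base stretches with another gene, most with each other, so how reads were split between them is uncertain.

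Oligoadenylate synthetases (OAS) make a second messenger from ATP that activates the nuclease RNase L. In LPS-treated cells 4 of the 6 OAS genes were lower in Lyz2-Cre cells (Oasl1, Oas1a, Oas1g and Oas3), and in untreated cells 1, Oasl1, was higher. Oasl1 (ENSMUSG00000041827, mm10 chromosome 5, 114923240 to 114937915) encodes a synthetase-like protein that in mice restrains translation of Irf7. Oasl1 had 834, 1313 and 1465 CPM in LPS-treated Lyz2-Cre libraries, against 2089, 3181 and 3103 CPM in Hdac3f/f libraries with LPS. Without LPS it had 253, 248 and 298 CPM in Lyz2-Cre libraries, against 160 (replicate 1), 139.7 and 140 CPM in Hdac3f/f libraries. Every Lyz2-Cre library was thus below every Hdac3f/f library with LPS and above every one without. The log2 fold change between genotypes was -1.21 ± 0.20 with LPS (adjusted p = 0.00112) and 0.86 ± 0.20 without (adjusted p = 0.0181). Oas3, the largest synthetase, was called with LPS and not without: it had 997, 1176 and 1333 CPM in LPS-treated Lyz2-Cre libraries, against 1665, 1974 and 1845 CPM in Hdac3f/f libraries with LPS (-0.65 ± 0.12), and the value without LPS was 0.28 ± 0.12 (adjusted p = 0.165). Oas2 and Oasl2 overlapped between genotypes at both treatments. Oas1a and Oas1g share 57.6% and 45.7% of their 50-base stretches with another gene, most with each other.

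The ISG15 system joins the small ubiquitin-like protein ISG15 to other proteins. Isg15 (ENSMUSG00000035692, mm10 chromosome 4, 156199424 to 156200818) was the most abundant of the 47 genes per kilobase in LPS-treated Hdac3f/f cells, at 2337 ± 453 CPM per kilobase. Isg15 had 709.9, 773 and 1080 CPM in LPS-treated Lyz2-Cre libraries, against 1372, 1946 and 1982 CPM in Hdac3f/f libraries with LPS. In untreated Lyz2-Cre libraries it had 76.5, 81.1 and 111 CPM, against 59.1, 53.3 and 53.3 CPM in untreated Hdac3f/f libraries. The genotypes did not overlap at either treatment, with a difference of -1.05 ± 0.19 with LPS (adjusted p = 0.00186) and 0.70 ± 0.19 without (adjusted p = 0.0354). Its rise with LPS was 3.25 ± 0.21 in Lyz2-Cre cells and 5.0 ± 0.23 in Hdac3f/f cells (interaction -1.75 ± 0.27, adjusted p = 0.00304). Usp18, the protease that removes ISG15 and also blocks signalling at IFNAR2, had 422, 516 and 592 CPM in LPS-treated Lyz2-Cre libraries, against 701, 775 and 885 CPM in Hdac3f/f libraries with LPS. Without LPS Usp18 had 92.1, 83.5 and 93.9 CPM in Lyz2-Cre libraries, against 59.9, 48.0 and 47.1 CPM in Hdac3f/f libraries. The log2 differences were -0.63 ± 0.14 and 0.80 ± 0.14, again of opposite sign. Trim25, a ubiquitin ligase for the sensor RIG-I, was lower with LPS (-0.47 ± 0.10) and higher without (0.41 ± 0.10). Herc6, the mouse ISG15 ligase, was not called in either genotype comparison (0.21 ± 0.24 with and 0.77 ± 0.25 without LPS), though LPS raised it by 2.12 ± 0.25 in Lyz2-Cre cells and 2.68 ± 0.26 in Hdac3f/f cells.

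Among the 6 genes for sensors and modifiers of foreign RNA and DNA all rose with LPS in both genotypes. Dhx58 (encoding LGP2, a regulator of the RNA helicase sensors), Zbp1 (a sensor of Z-form nucleic acid) and Adar (which edits adenosine in double-stranded RNA) were lower in Lyz2-Cre cells with LPS and higher without. Zbp1 had 365, 370.2 and 419.9 CPM in LPS-treated Lyz2-Cre libraries, against 534, 555 and 578 CPM in Hdac3f/f libraries with LPS. Without LPS it had 101, 110.1 and 140.1 CPM in Lyz2-Cre libraries, against 92.5, 70.8 and 68.3 CPM in Hdac3f/f libraries. The groups were apart at both treatments (-0.53 ± 0.14, adjusted p = 0.0131, and 0.60 ± 0.14, adjusted p = 0.0181), and the call with LPS was lost in 4 of 21 other settings. Without LPS the call was lost in 15 of 21 other settings for Dhx58, in 4 for Zbp1 and in 3 for Adar. Ddx58 (RIG-I), Ifih1 (MDA5) and Eif2ak2 (the RNA-activated kinase PKR) overlapped between genotypes with LPS, at 0.18 ± 0.23, -0.24 ± 0.21 and 0.47 ± 0.28. None of the 3 was called without LPS either, with values of 0.62 to 0.64.

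The IFI200 family encodes DNA-binding proteins of innate sensing, in a cluster on chromosome 1 (173747293 to 174031810). Ifi205 had the largest LPS response of the 47 genes in both genotypes, at 4.26 ± 0.22 in Lyz2-Cre cells and 5.76 ± 0.24 in Hdac3f/f cells. Ifi205 had 352, 327 and 383 CPM in LPS-treated Lyz2-Cre libraries, against 574, 568 and 545 CPM in Hdac3f/f libraries with LPS. In untreated Lyz2-Cre libraries it had 18.8, 14.4 and 22.4 CPM, against 14.4, 8.91 and 7.62 CPM in untreated Hdac3f/f libraries. With LPS the groups were well apart (-0.67 ± 0.19, adjusted p = 0.0195), while without LPS (0.84 ± 0.21, adjusted p = 0.0224) the lowest Lyz2-Cre library lay just above the highest Hdac3f/f library. Its neighbour Ifi204, the most abundant of the family per kilobase, was called in neither comparison of genotypes (-0.10 ± 0.14 with and 0.24 ± 0.14 without LPS) and rose by 1.42 ± 0.14 in Lyz2-Cre cells and 1.76 ± 0.14 in Hdac3f/f cells. Ifi204 and Ifi205 share 20% and 18.6% of their 50-base stretches with other genes.

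The direct effectors held the largest genotype differences with LPS. Rsad2 (viperin, which makes a chain-terminating nucleotide) and Cmpk2 (a mitochondrial nucleotide kinase) are neighbours within 37092 bases of chromosome 12 (26442746 to 26479837). Rsad2 had 1059, 1191 and 1537 CPM in LPS-treated Lyz2-Cre libraries, against 3021, 2583 and 3475 CPM in Hdac3f/f libraries with LPS. Rsad2 had 177, 195 and 195 CPM in untreated Lyz2-Cre libraries, against 115, 74.5 and 68.6 CPM in untreated Hdac3f/f libraries. The 2 genotypes were apart at both treatments, by -1.26 ± 0.20 with LPS (adjusted p = 0.000724) and 1.14 ± 0.20 without (adjusted p = 0.00417). Its rise with LPS was 2.74 ± 0.21 in Lyz2-Cre cells and 5.14 ± 0.23 in Hdac3f/f cells. Cmpk2 had 749.9, 907 and 1385 CPM in LPS-treated Lyz2-Cre libraries, against 2527, 2535 and 3168 CPM in Hdac3f/f libraries with LPS (-1.44 ± 0.21, adjusted p = 0.000509). Without LPS Cmpk2 had 84.6, 105 and 113 CPM in Lyz2-Cre libraries, against 65.7, 56.5 and 49.2 CPM in Hdac3f/f libraries (0.82 ± 0.21, adjusted p = 0.0241).

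Isg20 (ENSMUSG00000039236, mm10 chromosome 7, 78913424 to 78920396), which encodes an exonuclease that degrades RNA, had the most negative genotype difference with LPS of the 47 genes. Isg20 had 130, 144 and 234 CPM in LPS-treated Lyz2-Cre libraries, against 466, 711 and 718 CPM in Hdac3f/f libraries with LPS. Without LPS it had 27.8, 31.5 and 31.2 CPM in Lyz2-Cre libraries, against 18.0, 19.5 and 16.7 CPM in Hdac3f/f libraries. Every Lyz2-Cre library lay below every Hdac3f/f library with LPS and above every one without, and the differences were -1.90 ± 0.21 with LPS (adjusted p = 0.000135) and 0.74 ± 0.22 without (adjusted p = 0.0432, lost in 11 of 21 other settings). The interaction of Isg20 was -2.64 ± 0.30 (adjusted p = 0.000549).

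Mx1 encodes a GTPase that blocks influenza and related viruses in the nucleus. Mx1 had 327, 398 and 392 CPM in LPS-treated Lyz2-Cre libraries, against 633, 357 and 530.1 CPM in LPS-treated Hdac3f/f libraries, so the genotypes overlapped (-0.45 ± 0.27, adjusted p = 0.212). Without LPS it had 75.0, 98.3 and 95.1 CPM in Lyz2-Cre libraries, against 50.5, 32.2 and 20.8 CPM in Hdac3f/f libraries (1.37 ± 0.27, adjusted p = 0.00825). Mx2, its cytoplasmic relative, was lower in Lyz2-Cre cells with LPS (-0.73 ± 0.19) and higher without (0.84 ± 0.21). The deposited annotation lists Mx2 as a polymorphic pseudogene, and whether a working protein was made is not known here. Bst2 (tetherin, which holds budding virus at the cell surface) was the most abundant of the 47 genes per kilobase in the other 3 groups. Bst2 had 1039, 1160 and 1423 CPM in LPS-treated Lyz2-Cre libraries, against 1521, 2214 and 1977 CPM in Hdac3f/f libraries with LPS (-0.66 ± 0.17, adjusted p = 0.0126), and the untreated genotypes overlapped (-0.06 ± 0.17, adjusted p = 0.836).

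Other effectors were not called with LPS. Samd9l, a translation inhibitor, rose in both genotypes, by 1.2 ± 0.25 in Lyz2-Cre cells and 1.21 ± 0.25 in Hdac3f/f cells, with an interaction of -0.005 ± 0.343. Slfn5, of the Schlafen family, was higher in untreated Lyz2-Cre cells (0.78 ± 0.23, lost in 12 of 21 other settings) and overlapped between genotypes with LPS (0.10 ± 0.23). Slfn8, another Schlafen gene, singled out after its values were seen, was low in replicate 2 of both Lyz2-Cre groups. It had 119, 16.0 and 111 CPM in LPS-treated Lyz2-Cre libraries and 292, 149 and 216 CPM in Hdac3f/f libraries with LPS. In untreated Lyz2-Cre libraries it had 49.8, 9.92 and 48.3 CPM, against 79.3, 50.2 and 30.7 CPM in untreated Hdac3f/f libraries. Its SE was accordingly the largest of the 47 genes in the genotype comparisons (0.66 in each), and neither was called.

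**Figure D4:**
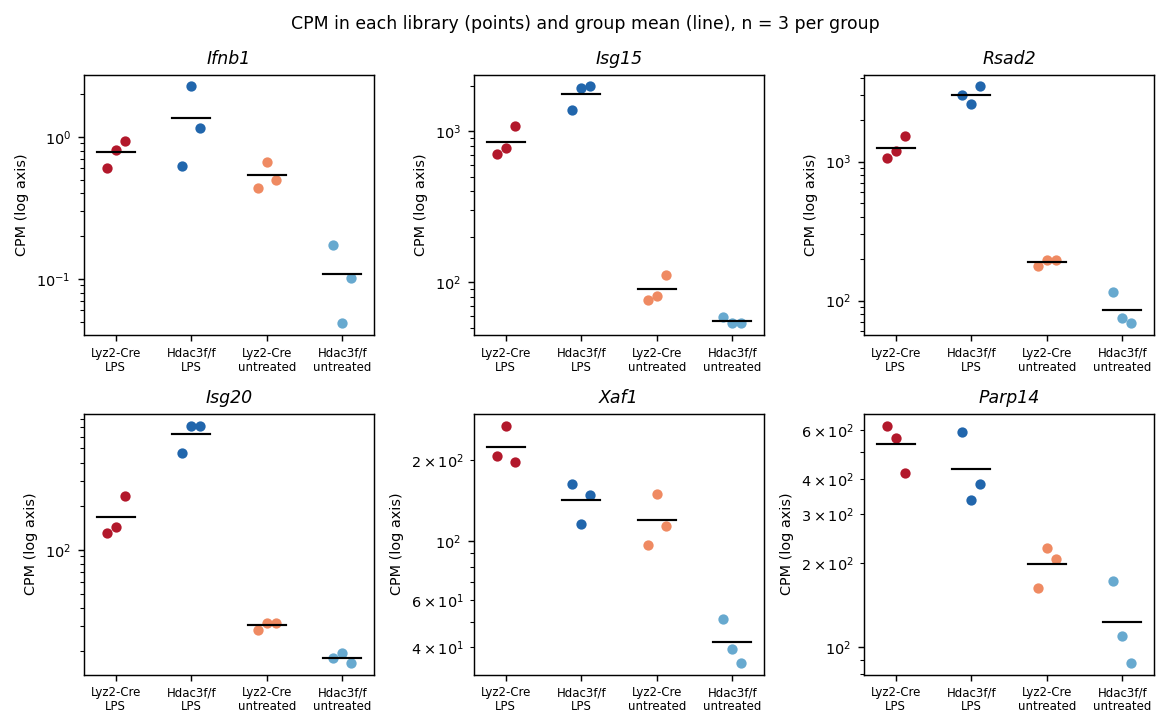
CPM of 6 genes in each library (points, log axis) with the group mean (line), n = 3 per group. Isg15, Rsad2 and Isg20 show LPS-treated Lyz2-Cre points below LPS-treated Hdac3f/f points and untreated Lyz2-Cre points above untreated Hdac3f/f points, Xaf1 shows Lyz2-Cre points above at both treatments, and Parp14 and Ifnb1 overlap between genotypes with LPS.

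The ADP-ribosyltransferase genes Parp9 and Parp14 and the ubiquitin ligase gene Dtx3l, whose product pairs with PARP9, lie within 139732 bases of chromosome 16 (35832874 to 35972605). None of the 3 was called with LPS between genotypes. Parp14 had 624, 563 and 422 CPM in LPS-treated Lyz2-Cre libraries, against 590.2, 337 and 384 CPM in Hdac3f/f libraries with LPS (0.29 ± 0.26). In untreated Lyz2-Cre libraries it had 162, 226 and 207 CPM, against 173, 109.5 and 87.9 CPM in untreated Hdac3f/f libraries (0.68 ± 0.26, adjusted p = 0.107). The genotypes overlapped at both treatments. Parp9 was higher in untreated Lyz2-Cre cells (0.61 ± 0.18, lost in 13 of 21 other settings). Parp9 and Dtx3l overlap on opposite strands, and whether reads were counted by strand is not given in the sources used here.

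Xaf1 (ENSMUSG00000040483, mm10 chromosome 11, 72301629 to 72313733), which encodes a partner of the apoptosis inhibitor XIAP, was the exception among the 47 genes, higher in Lyz2-Cre cells at both treatments. Xaf1 had 208, 269.8 and 198 CPM in LPS-treated Lyz2-Cre libraries, against 163, 116 and 149 CPM in Hdac3f/f libraries with LPS. Without LPS it had 96.9, 149.6 and 114 CPM in Lyz2-Cre libraries, against 51.2, 39.6 and 35.1 CPM in Hdac3f/f libraries. The genotypes did not overlap, and all untreated Lyz2-Cre libraries lay within or below the range of LPS-treated Hdac3f/f libraries. The difference was 0.66 ± 0.19 with LPS (adjusted p = 0.0207) and 1.52 ± 0.20 without (adjusted p = 0.000695). The call with LPS was lost without LPS-treated Lyz2-Cre replicate 2 (adjusted p = 0.0938) and without LPS-treated Hdac3f/f replicate 2 (0.0917) or 3 (0.0508). LPS raised Xaf1 by 0.91 ± 0.19 in Lyz2-Cre cells and 1.76 ± 0.20 in Hdac3f/f cells, and the interaction was not called (-0.86 ± 0.27, adjusted p = 0.0735).

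The remaining interferon-stimulated genes were mostly lower with LPS: 7 of 11 were lower in Lyz2-Cre cells, and without LPS 5 of 11 were higher. Among all tested genes 16.9% were lower with LPS and 5.12% higher without. Daxx, a histone chaperone of nuclear bodies, had 336, 364 and 439 CPM in LPS-treated Lyz2-Cre libraries, against 658, 823 and 894 CPM in Hdac3f/f libraries with LPS (-1.06 ± 0.13, adjusted p = 0.00023). Untreated, Daxx was at 83.8 ± 7.45 CPM in Lyz2-Cre cells and 83.5 ± 1.57 CPM in Hdac3f/f cells, with overlapping libraries (0.01 ± 0.13). Tor3a, of the torsin ATPase family, had 418, 455 and 548 CPM in LPS-treated Lyz2-Cre libraries, against 749.8, 942 and 949 CPM in Hdac3f/f libraries with LPS (-0.89 ± 0.12, adjusted p = 0.000402). Without LPS Tor3a was slightly higher in Lyz2-Cre cells, at 196 ± 14.0 CPM against 145 ± 2.62 CPM (0.43 ± 0.12, adjusted p = 0.0391, lost in 10 of 21 other settings). Phf11d, a PHD finger gene, was at 220.2 ± 25.7 CPM in LPS-treated Lyz2-Cre cells, against 295 ± 9.81 CPM in LPS-treated Hdac3f/f cells (-0.42 ± 0.12), and at 56.4 ± 7.34 CPM in untreated Lyz2-Cre cells and 39.4 ± 3.76 CPM in untreated Hdac3f/f cells (0.52 ± 0.12).

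Ifi27l2a, a small mitochondrial membrane protein gene, differed from the others in the resting state. Ifi27l2a had 136, 147 and 179 CPM in LPS-treated Lyz2-Cre libraries, against 214, 326 and 324 CPM in Hdac3f/f libraries with LPS (-0.90 ± 0.19, adjusted p = 0.00455). It had 117, 102 and 147 CPM in untreated Lyz2-Cre libraries, against 149, 176 and 213 CPM in untreated Hdac3f/f libraries. All untreated Lyz2-Cre libraries lay below all untreated Hdac3f/f libraries, the single case among the 47 genes, as did 16.5% of all tested genes. The difference was not called by edgeR (-0.56 ± 0.19, adjusted p = 0.0792). In the authors' own comparison Ifi27l2a was lower in untreated Lyz2-Cre cells (authors' adjusted p = 0.00715). Ifi35 and Rtp4 were lower with LPS (-0.97 ± 0.15 and -0.42 ± 0.09) and not called without, while Trim30a and Sp100 were called in neither comparison of genotypes.

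Per kilobase of transcript, the highest of the 47 genes in LPS-treated Lyz2-Cre cells were Bst2 (1337 ± 218 CPM per kilobase), Isg15 (1130 ± 261) and Oasl1 (462 ± 126). In LPS-treated Hdac3f/f cells the order was Isg15 (2337 ± 453), Bst2 (2109 ± 390) and Oasl1 (1070 ± 234). The ranges of Isg15 and Bst2 over the libraries overlapped in both LPS-treated groups. Within each library, however, Bst2 was above Isg15 in LPS-treated Lyz2-Cre cells and Isg15 above Bst2 in LPS-treated Hdac3f/f cells. Untreated, Bst2 led in Lyz2-Cre cells (828 ± 81.5) and in Hdac3f/f cells (864 ± 152), followed by Ifi27l2a (263 ± 49.1 and 387 ± 69.9). These levels are by the deposited gene length and carry an SD over n = 3 libraries.

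Libraries of a group were ordered alike in many of the genes. Untreated Hdac3f/f replicate 1 was the highest of its group in 41 of 47 genes and replicate 3 the lowest in 36. Untreated Lyz2-Cre replicate 1 was lowest in 35, LPS-treated Lyz2-Cre replicate 3 highest in 31 and LPS-treated Hdac3f/f replicate 2 lowest in 28. The 47 genes are therefore not 47 separate readings of a genotype.

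Of the 7 genes for the interferon receptor and ISGF3, 3 were lower in LPS-treated Lyz2-Cre cells and none higher. Among all tested genes 16.9% were lower and 15.7% higher. Tyk2, the kinase bound to IFNAR1, was at 157 ± 14.7 CPM in LPS-treated Lyz2-Cre cells, against 319 ± 44.7 CPM in LPS-treated Hdac3f/f cells (-1.02 ± 0.12, adjusted p = 0.000142), and at 96.1 ± 3.59 CPM in untreated Lyz2-Cre cells and 109 ± 7.40 CPM in untreated Hdac3f/f cells (-0.18 ± 0.12, not called). Stat2 was at 429 ± 19.3 CPM in LPS-treated Lyz2-Cre cells, against 565 ± 37.0 CPM in LPS-treated Hdac3f/f cells (-0.40 ± 0.12, adjusted p = 0.0202, lost in 5 of 21 other settings, with -0.13 under library totals), and at 258 ± 18.9 CPM in untreated Lyz2-Cre cells and 171 ± 26.6 CPM in untreated Hdac3f/f cells (0.59 ± 0.12, adjusted p = 0.00776). It thus turned round with LPS, as a number of the 47 genes did. Of the 47, Rsad2 alone was called lower with LPS and higher without in all 21 other settings. Ifnar2 was at 202 ± 2.97 CPM in LPS-treated Lyz2-Cre cells, against 241 ± 10.6 CPM in LPS-treated Hdac3f/f cells (-0.26 ± 0.08, adjusted p = 0.0335), a call lost in 10 of 21 other settings, among them library totals (0.01, adjusted p = 0.929), and the value without LPS was 0.07 ± 0.08.

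Ifnar1 was at 186 ± 9.39 CPM in LPS-treated Lyz2-Cre cells, against 201 ± 36.2 CPM in LPS-treated Hdac3f/f cells, and at 149.6 ± 47.6 CPM in untreated Lyz2-Cre cells and 109 ± 14.0 CPM in untreated Hdac3f/f cells. Jak1 was at 209.9 ± 26.6 CPM in LPS-treated Lyz2-Cre cells, against 162 ± 38.1 CPM in LPS-treated Hdac3f/f cells, and at 176 ± 15.7 CPM in untreated Lyz2-Cre cells and 132 ± 29.4 CPM in untreated Hdac3f/f cells. Irf9 was at 109.5 ± 2.43 CPM in LPS-treated Lyz2-Cre cells, against 120 ± 6.61 CPM in LPS-treated Hdac3f/f cells, and at 96.2 ± 0.132 CPM in untreated Lyz2-Cre cells and 91.8 ± 4.12 CPM in untreated Hdac3f/f cells. None of these 3 differed between genotypes by the test. The interaction was called below 0 for Stat2 (-0.99 ± 0.16, adjusted p = 0.00386) and Tyk2 (-0.84 ± 0.16, adjusted p = 0.00797) among the 7.

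Of 13 genes on the route from Toll-like receptor 4 and the cytosolic sensors to Ifnb1, 5 were lower and 2 higher in LPS-treated Lyz2-Cre cells. Among all tested genes 16.9% were lower and 15.7% higher. Ticam1, the TRIF adaptor, was at 36.9 ± 2.14 CPM in LPS-treated Lyz2-Cre cells, against 87.7 ± 15.1 CPM in LPS-treated Hdac3f/f cells (-1.25 ± 0.14, adjusted p = 0.000135). It was lower without LPS too, at 27.0 ± 0.618 CPM in Lyz2-Cre cells and 38.9 ± 6.08 CPM in Hdac3f/f cells (-0.53 ± 0.14, adjusted p = 0.0294, lost in 5 of 21 other settings). Irf7, which amplifies interferon production and is itself induced by interferon, was at 1936 ± 312 CPM in LPS-treated Lyz2-Cre cells, against 3351 ± 493 CPM in LPS-treated Hdac3f/f cells (-0.79 ± 0.14, adjusted p = 0.00192), with an interaction of -1.14 ± 0.20 (adjusted p = 0.00556). Tlr4 went the other way, at 62.0 ± 3.62 CPM in LPS-treated Lyz2-Cre cells, against 34.3 ± 5.98 CPM in LPS-treated Hdac3f/f cells (0.85 ± 0.13, adjusted p = 0.000611), as did its adaptor gene Ticam2 (0.70 ± 0.15, adjusted p = 0.00443). The other 3 that were lower with LPS were Irf3 (-0.48), Tmem173, the gene of STING (-0.60), and Ikbke (-0.40). These 3 calls were lost in 5, 4 and 5 of 21 other settings, with values down to -0.13 for Irf3 under the offsets for GC content and length, -0.33 for Tmem173 under library totals and -0.13 for Ikbke under library totals. Without LPS, Ly96, Ikbke and Ticam2 were higher, calls lost in 5, 9 and 10 of 21 other settings, Ticam1 was lower, and the other 9 were not called.

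Several of the 47 genes lie next to each other, in 9 clusters of genes less than 1000000 bases apart, and neighbours did not always share a call. Oas2, Oas3, Oas1g and Oas1a span 177189 bases of chromosome 5 (120730333 to 120907521), with 3 of the 4 lower with LPS in Lyz2-Cre cells. Rsad2 and Cmpk2 were both called in both genotype comparisons. Mx1 and Mx2 on chromosome 16 (97447035 to 97560900) were both higher without LPS and only Mx2 was called lower with it. In the PARP and DTX3L cluster none of 3 was called with LPS.

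Among the 47 genes the genotype difference with LPS went with gene length: shorter genes had the more negative values. Spearman's rho across the genes (n = 47, which share their libraries and are not independent replicates) was 0.617 with deposited gene length and -0.510 with GC content, against 0.180 and -0.437 over 14273 genes with a sequence. When offsets for GC content and length were added to the fit, a setting chosen after the data were seen, rho was 0.409 with length and 0.0509 with GC content. With the offsets 32 of the 47 genes were lower with LPS in Lyz2-Cre cells, all of the 24 called without them included. Of all tested genes 16.5% were lower in that fit. Without LPS the offsets gave 30 genes higher, against 8.01% of all tested genes. For the interaction the offsets gave 38 genes called below 0, all 26 called without them included, against 7.39% of all tested genes. Without LPS rho with length was 0.005. Whether RNA quality or library preparation had a part in the relation with length was not tested.

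**Figure D5:**
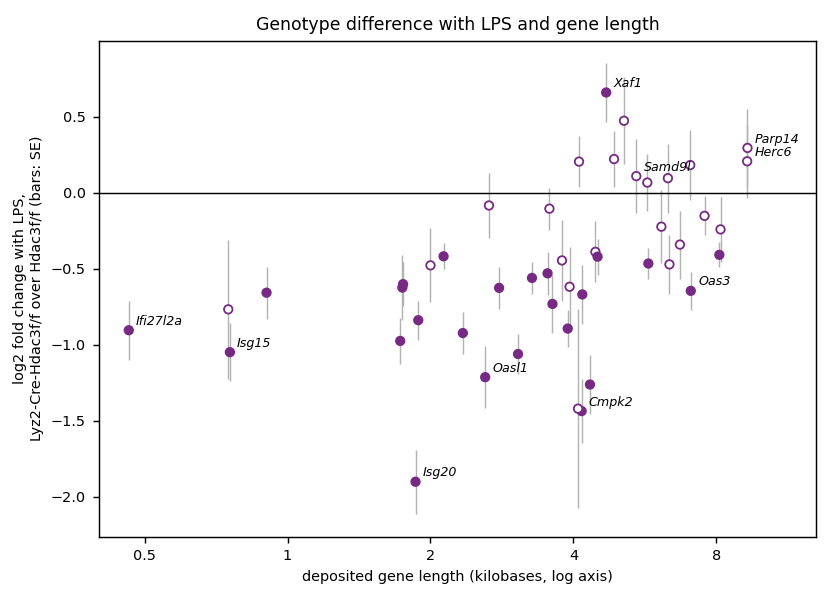
Log2 fold change in Lyz2-Cre-Hdac3f/f over Hdac3f/f cells with LPS (vertical axis, SE as bars) against deposited gene length in kilobases (log axis) for the 47 genes, with open symbols where the adjusted p was 0.05 or more. Isg20 (-1.90), Cmpk2 (-1.44) and Slfn8 (-1.42, not called) are the lowest, and the shortest gene above 0 is Trim30a.

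The authors' deposited table compares the genotypes at each treatment. By the adjusted p under 0.05 in the authors' deposited table, there were 27 of the 47 genes lower and 1 higher in Lyz2-Cre cells with LPS, and 29 higher and 1 lower without LPS. The 1 lower without LPS was Ifi27l2a. The share of all genes called in that table was not computed. Its log2 values run from Hdac3f/f over Lyz2-Cre cells, so that Isg20 stands at 1.91 with LPS and -0.71 without in the authors' deposited table.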

How the data were processed

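RNA sequencing of 12 libraries of mouse macrophages was used, 3 in each of 4 groups, grouped by the labels. TopHat2 and the mm10 build are named per the submitters' processing notes, and the counter, annotation and strand setting are not given in the sources used here. The authors deposited whole-number read counts per gene, which all tests used, with gene length in bases. FPKM values, log2 fold changes, p-values and a signal column of group means of normalised counts were also deposited by the authors, and of these only the log2 fold changes and p-values were used, to describe the authors' own comparison.

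Counts were filtered with filterByExpr, scaled by TMM and tested with edgeR 4.0.16 (quasi-likelihood, two-sided) in R 4.3.3, with 1 model over the 4 groups and 5 contrasts, and p-values were adjusted by Benjamini-Hochberg over 14286 genes, with calls at 0.05. SE was the absolute log2 fold change over the square root of F. CPM used TMM-scaled library sizes. The fit was tested on simulated data with 200 changed genes. Alternatives were DESeq2 1.42.0, other scalings and filters, only the groups compared, a replicate block, each library left out, and offsets for GC content and length, the last added after the data were seen. Libraries held 16553432 to 18706990 counts, and floors of 3 counts cover counting error only.

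The members and lists were chosen with earlier results of these data known. Genes named in full were Ifnb1, Hdac3, the highest per kilobase in each role group, the 4 called members of lowest adjusted p per contrast and direction, and members called opposite to most. Others named with values were chosen after their values were seen. Of the receptor and ISGF3 list, 1 gene is not reported here.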

Additional observations from a re-analysis of the deposited data

Results flagged for a closer look

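In 14 of the genes named in full the LPS response differed between genotypes by a test of the difference itself, the interaction term of edgeR's quasi-likelihood fit (LPS response in Lyz2-Cre cells minus that in Hdac3f/f cells, log2). In all 14 the value was below 0, as it was in all 47 genes. Isg20, Rsad2, Cmpk2 and Tor3a were named by this contrast, so the shared sign is not a further observation. The interaction was -2.98 for Ifnb1, -2.64 for Isg20, -2.40 for Rsad2, -2.26 for Cmpk2, -2.07 for Oasl1, -1.82 for Mx1 and -1.75 for Isg15. It was -1.51 for Ifi205, -1.48 for Ifit3, -1.42 for Usp18, -1.33 for Tor3a, -1.13 for Zbp1, -1.07 for Daxx and -0.94 for Phf11d. Ifnb1 rests on 1 to 29 counts per library, and its call was lost in 8 of the 12 fits that left out 1 library.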

How the results depend on the processing

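With library totals 14 genes were lower in Lyz2-Cre cells with LPS, against 24 with TMM, and all 14 were among the 24. They moved the median of all tested genes to -0.463 for LPS in Lyz2-Cre cells, -0.724 for LPS in Hdac3f/f cells and 0.286 between genotypes with LPS. They also turned the sign of Trim25 with LPS in Lyz2-Cre cells (-0.064, adjusted p = 0.566, edgeR), of Irf3 (-0.23, 0.064) and Irf9 (-0.25, 0.0308) with LPS in Hdac3f/f cells, and of Ifnar2 between genotypes with LPS (0.011, 0.929); the cause was not tested. Without LPS, 14 genes were higher when only the untreated groups were fitted, with fewer samples, and DESeq2, no filter, the replicate block and the offsets each called 1 gene lower, against 0. With no filter 2 genes were higher with LPS, against 1. Leaving out each library in turn gave 41 to 43 genes that rose with LPS in Lyz2-Cre cells, 46 to 47 in Hdac3f/f cells, 18 to 26 lower and 0 to 1 higher between genotypes with LPS, 4 to 33 higher and 0 to 1 lower without LPS, and 22 to 35 with an interaction below 0. Same-numbered libraries did not deviate together in a uniform way. Their correlations ran from 0.00255 to 0.197 in the LPS responses. Between genotypes they ran from -0.0789 to 0.217 with LPS and from -0.404 to -0.00501 without. The numbers were not taken as pairs in the main fit. The replicate block gave 43 and 47 genes that rose with LPS, 25 lower with LPS, 28 higher without and 27 with an interaction below 0. Depth limits Ifnb1, with at most 29 counts in a library.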

Other observations

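Of 8 negative regulators of interferon signalling, Ptpn11 (log2 fold change 0.45) and Ptpn2 (0.35) were higher and Ptpn6 (-0.49) and Socs3 (-0.70) lower in Lyz2-Cre cells with LPS, and none was called without LPS (edgeR). With LPS 15.7% of all tested genes were higher and 16.9% lower, so these counts are near the share of all genes. The interferon gamma receptor genes split with LPS, with Ifngr1 higher (0.63) and Ifngr2 lower (-0.66) in Lyz2-Cre cells. Of the 3 genes for interferon gamma and its receptor, 2 rose and 1 fell with LPS in each genotype. The largest LPS response among these 3 was 9.10 in Lyz2-Cre cells and 9.95 in Hdac3f/f cells, against 0.54 and 3.52 for Ifnb1. The interaction was called below 0 for 1 of the 3 and above 0 for none. Whether interferon gamma had a part in the differences described above was not tested.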
